A study of Homo sapiens with 12 samples.

Results

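SOD2 and 9 genes widely used as readouts of the transcription factor NF-κB were followed in RNA from polysomes, which are mRNAs carrying several ribosomes. The genes are NFKBIA, NFKB2, TNFAIP3, BIRC3, ICAM1, IL6, CXCL8, CXCL1, IL32 and SOD2. They were taken as a list of 10 symbols out of 24559 gene symbols in the deposited count table. The list was drawn up with the levels of these genes in the same libraries in view, so their levels and fold changes are given as a description, with errors. Where members are counted as called, the share of all genes stands beside the count, and nothing is read from it. All 10 had rows in the table and all 10 passed the filter on low counts.

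In all, 12 polysome RNA libraries came from 3 established human triple-negative breast cancer (TNBC) lines, with 2 libraries in each of 6 groups. MDA-MB-231 and SUM159 cells carried either a control vector (EV) or an shRNA against TRMT112 (KD), and BT549 cells carried either a control vector (EV) or a TRMT112 expression clone (OE). TRMT112 is the partner protein that several methyltransferases of RNA and protein need to be active. According to the methods, the KD control was a non-silencing shRNA and the OE control was an empty vector. Transfected cells were selected with puromycin for the shRNA constructs and with G418 for overexpression, and the culture media are described as free of antibiotics. No source used here says whether the cells were pools or clones. SUM159 medium held insulin and hydrocortisone in both of its groups, whereas the media of MDA-MB-231 and BT549 cells are listed without them. Cells of every group received cycloheximide, which halts ribosomes on their mRNAs, shortly before lysis, and no other treatment is listed for any group. The part of cycloheximide in the levels was not tested. Nothing in the labels says that the 2 libraries of a group came from separate cultures, so the spread between them may be technical. No libraries of total RNA were analysed here, and a change in the amount of an mRNA cannot be told apart from a change in its ribosome loading, nor fewer cells expressing a gene from less RNA per cell.

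NF-κB is a family of dimers built from RELA, REL, RELB and the processed products of NFKB1 and NFKB2. In resting cells the dimers are held in the cytoplasm by IκB proteins such as the product of NFKBIA. Receptors for TNF, interleukin-1 and microbial products activate the IKK kinases, IκB is degraded, and the dimers enter the nucleus and switch on target genes. Among those targets are brakes of the pathway itself (NFKBIA, and TNFAIP3, which encodes the ubiquitin-editing enzyme A20), its own subunits (NFKB2), survival factors (BIRC3, which encodes cIAP2), adhesion molecules (ICAM1), cytokines (IL6, IL32), chemokines that attract neutrophils (CXCL8, CXCL1) and SOD2, the manganese superoxide dismutase of mitochondria. Many carcinoma lines, TNBC lines among them, keep part of this programme on without an added stimulus.

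The promoters were read for letters of κB sites and of other binding sites. RefSeq promoter windows (GRCh38.p14, 300 bases: 250 before and 50 after an annotated start) were found for all 10 symbols and were searched on both strands. The letters GGAANTTCC, a form of κB site, stood in a window of 4 of the 10 genes, NFKBIA, ICAM1, CXCL8 and CXCL1. Of 27305 gene symbols, 1.16% hold these letters in any of their windows, as do 0.965% of 35116 windows. Other forms of the site exist, so a gene without these letters may still carry one. These letters read alike on both strands, so a match on either strand is the same site. The whole windows of NFKBIA (chr14:35404700-35404999, minus strand), ICAM1 (chr19:10270870-10271169, plus strand) and CXCL8 (chr4:73740319-73740618, plus strand) are shown because they place this site near the start, and capitals mark the GGAANTTCC match.
NFKBIA: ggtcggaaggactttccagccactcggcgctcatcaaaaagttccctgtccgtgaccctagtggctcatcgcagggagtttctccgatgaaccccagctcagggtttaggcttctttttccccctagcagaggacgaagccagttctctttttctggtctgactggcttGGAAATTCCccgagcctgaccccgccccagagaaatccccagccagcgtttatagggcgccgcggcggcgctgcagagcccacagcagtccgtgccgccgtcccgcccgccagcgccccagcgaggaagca
ICAM1: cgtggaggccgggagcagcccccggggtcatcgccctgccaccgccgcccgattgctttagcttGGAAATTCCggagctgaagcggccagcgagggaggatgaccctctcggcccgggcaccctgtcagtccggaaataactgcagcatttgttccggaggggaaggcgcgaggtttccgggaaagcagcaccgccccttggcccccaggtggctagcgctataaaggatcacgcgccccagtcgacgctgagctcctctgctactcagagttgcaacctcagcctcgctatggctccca
CXCL8: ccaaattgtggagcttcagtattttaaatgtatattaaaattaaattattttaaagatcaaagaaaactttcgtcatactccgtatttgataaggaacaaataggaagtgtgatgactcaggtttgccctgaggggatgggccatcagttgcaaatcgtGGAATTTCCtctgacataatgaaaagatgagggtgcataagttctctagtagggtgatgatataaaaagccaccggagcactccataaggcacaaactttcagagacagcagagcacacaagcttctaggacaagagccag

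In these windows the match began 81 bases before the start in NFKBIA, 186 in ICAM1 and 91 in CXCL8. CXCL8 was the only one of the 10 genes with TGANTCA, the letters of an AP-1 site, 137 bases before its start. Of all gene symbols, 9.37% hold those letters in any window. A pair of TTTC with any 2 bases between them, a core of interferon-response elements, stood in no window of the 10 genes. It stands in a window of 4.38% of all gene symbols. CXCL1 has near relatives in the same cluster on chromosome 4, CXCL2 and CXCL3, and stretches of 60 bases around the match are set beside each other for CXCL1 (chr4:73869285-73869344, plus strand), CXCL2 (chr4:74099243-74099302, minus strand) and CXCL3 (chr4:74038738-74038797, minus strand).
CXCL1: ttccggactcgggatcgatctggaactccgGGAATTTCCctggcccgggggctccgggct
CXCL2: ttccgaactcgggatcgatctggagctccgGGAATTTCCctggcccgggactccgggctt
CXCL3: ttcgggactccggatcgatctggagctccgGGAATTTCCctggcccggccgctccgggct

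Aligned on the match without gaps, CXCL1 and CXCL3 were identical at 55 of 60 bases, CXCL1 and CXCL2 at 51, and CXCL2 and CXCL3 at 49. The looser form, GGG and CC with any 5 bases between them, was found in a window of all 10 genes. However, 61.7% of all gene symbols hold it in any window, so it separates these genes little from others. Its matches in IL6 (chr7:22727080-22727159, plus strand), TNFAIP3 (chr6:137867169-137867228, plus strand) and BIRC3 (chr11:102317264-102317363, plus strand) are shown in capitals, because these genes lacked GGAANTTCC. They are marked on whichever strand they lie and joined where 2 of them overlap.
IL6: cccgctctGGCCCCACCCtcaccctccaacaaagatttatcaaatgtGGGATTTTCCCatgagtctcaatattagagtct
TNFAIP3: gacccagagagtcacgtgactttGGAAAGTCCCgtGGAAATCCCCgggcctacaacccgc
BIRC3: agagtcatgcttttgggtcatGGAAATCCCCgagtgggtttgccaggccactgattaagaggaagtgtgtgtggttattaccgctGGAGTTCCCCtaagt

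A match describes letters in a window and does not show that a factor was bound. CXCL8 and CXCL1 lie near each other on chromosome 4, and the other genes lie apart in the genome (GRCh38, GENCODE 44). On the minus strand are SOD2 at chr6:159669069-159762529 and NFKBIA at chr14:35401079-35404749. On the plus strand are NFKB2 at chr10:102394110-102402524, TNFAIP3 at chr6:137867214-137883314, BIRC3 at chr11:102317484-102339403, ICAM1 at chr19:10271093-10286615, IL6 at chr7:22725884-22732002, IL32 at chr16:3065297-3082192, CXCL8 at chr4:73740519-73743716 and CXCL1 at chr4:73869393-73871308.

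The libraries held between 22954226 and 27434677 expected counts, and 16538 genes were tested. Replicates differed little: the median absolute log2 difference between the 2 libraries of a group lay between 0.06 and 0.08. TRMT112 itself checked the labels, changing on the log2 scale by -1.23 in MDA-MB-231 KD, -0.76 in SUM159 KD and 0.48 in BT549 OE. EV and treated cells of a line ranked 16538 genes with a Spearman rho of 0.99 in MDA-MB-231, 0.97 in SUM159 and 0.90 in BT549, so the BT549 groups stood farthest apart over all genes. Of 7 leukocyte markers 4 had rows, PTPRC with at most 16 and LYZ with at most 1 count among them. The summed leukocyte markers were 3.84 and 3.93 CPM in BT549 OE against 0.916 and 0.926 in BT549 EV, with CD14 at up to 80 counts. Of 5 endothelial markers 3 had rows, PECAM1, CDH5 and TEK. Their sum was 4.70 and 3.95 CPM in MDA-MB-231 KD against 1.18 and 1.07 in its EV. In SUM159 it was 3.71 and 4.30 CPM in KD against 1.01 and 1.05 in EV. The part of these markers in the results below was not tested. Of the receptors that define TNBC by their lack, ESR1 had no row, PGR had at most 9 counts and ERBB2 had between 1478 and 3089 counts. PGR and ERBB2 summed to 138 and 143 CPM in BT549 EV and 70.7 and 72.2 in BT549 OE. The sums were 60.6 and 62.8 in MDA-MB-231 EV and 57.9 and 60.2 in its KD. In SUM159 they were 114 and 112 in EV and 111 and 108 in KD. The part of this difference in the BT549 results was not tested.

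Levels are given as CPM, counts scaled to a common library total after TMM normalization, per library in the order replicate 1 and replicate 2. Transcripts without counts in BT549 are not listed, so sums in the other lines may miss some, and the effect on levels was not tested. In control cells the 3 lines held the targets at different levels, with SUM159 the highest for 7 of the 10. These were NFKBIA, NFKB2, TNFAIP3, BIRC3, ICAM1, CXCL8 and IL32, although for NFKB2 the SUM159 and BT549 libraries overlapped. BT549 EV was the highest for SOD2 and CXCL1, and MDA-MB-231 EV for IL6. The gap between the highest and the lowest line reached 358-fold for CXCL1, 236-fold for IL32, 20.8-fold for SOD2 and 17.4-fold for CXCL8, while it was 1.5-fold for NFKB2 and 1.93-fold for NFKBIA. Per kilobase of transcript, SOD2 was the most abundant of the 10 in 5 of the 6 groups, at 92.5 ± 2.0 CPM per kb (mean ± SD, n = 2) in MDA-MB-231 EV, 1364 ± 38.7 in SUM159 EV and 2586 ± 8.63 in BT549 EV. In SUM159 KD IL32 stood above it, at 523 ± 9.59 against 252 ± 5.86 CPM per kb for SOD2.

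**Figure D1:**
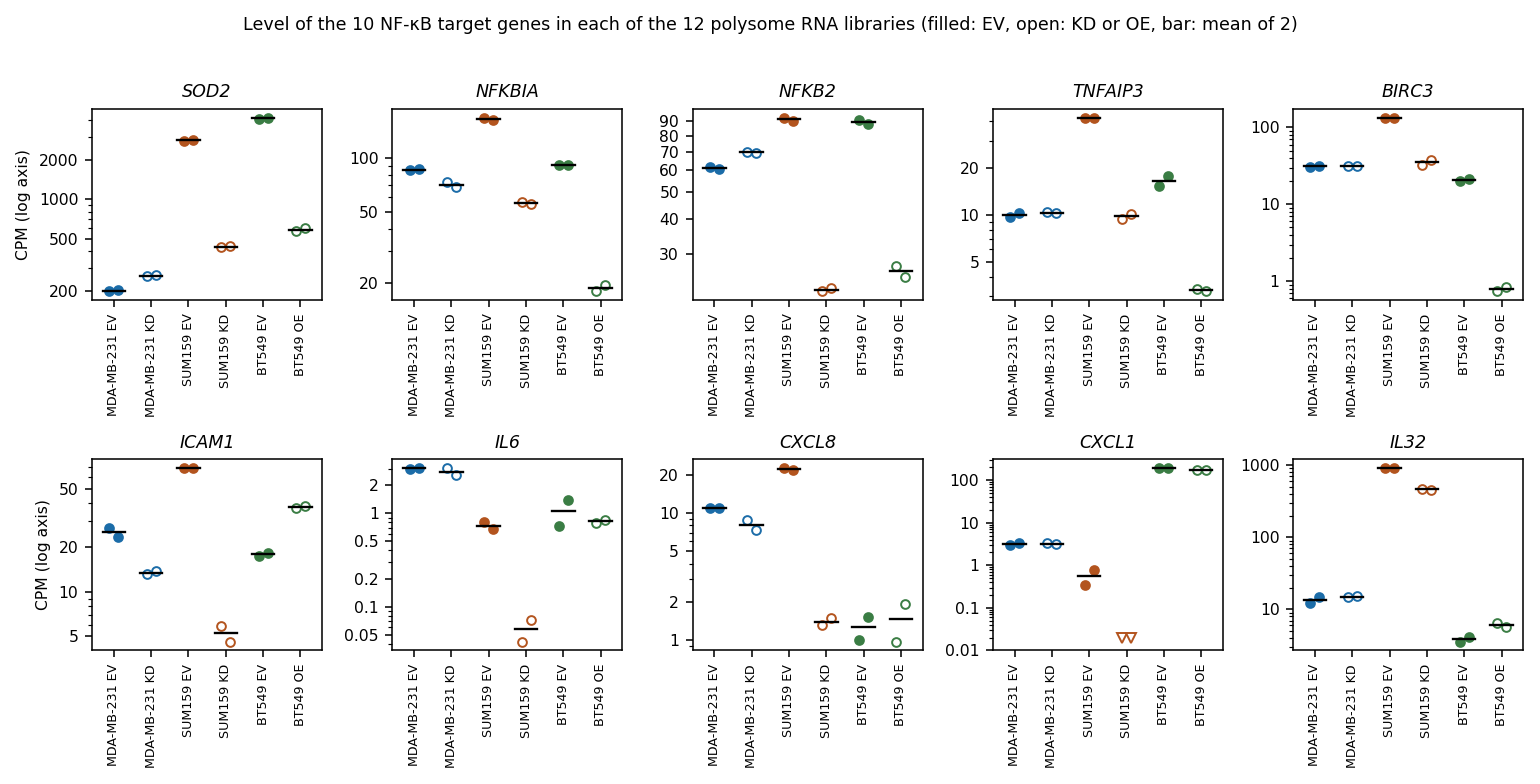
Level of each gene in CPM (vertical axis, logarithmic) in the 6 groups (horizontal axis), with 1 point per library, filled for EV and open for KD or OE, and a bar at the mean of 2. SUM159 KD libraries (open, orange) sit below both SUM159 EV libraries for all 10 genes, and the triangles for CXCL1 mark libraries with 0 counts.

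SOD2, the enzyme that turns mitochondrial superoxide into peroxide, was far lower in SUM159 KD and BT549 OE and slightly higher in MDA-MB-231 KD. Its level was 198 and 202 CPM in MDA-MB-231 EV and 258 and 261 CPM in MDA-MB-231 KD. It was 2805 and 2833 CPM in SUM159 EV and 428 and 435 CPM in SUM159 KD. In BT549 it was 4101 and 4208 CPM in EV and 571 and 597 CPM in OE. The EV and treated libraries did not overlap in any of the 3 lines, and the line with the lowest control level was the one where KD libraries were above EV. Relative to EV, SOD2 differed by 0.38 ± 0.03 (SE, log2 scale) in MDA-MB-231 KD, -2.71 ± 0.03 in SUM159 KD and -2.83 ± 0.03 in BT549 OE, which is 1.30-fold higher, 6.53-fold lower and 7.12-fold lower.

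The brakes of the pathway, NFKBIA and TNFAIP3, were both lower in SUM159 KD and BT549 OE. NFKBIA, the IκBα gene, was at 168 and 163 CPM in SUM159 EV and at 56.7 and 55.3 CPM in SUM159 KD. In BT549 it was at 91.0 and 91.1 CPM in EV and at 17.9 and 19.3 CPM in OE. In MDA-MB-231 it was at 85.2 and 86.3 CPM in EV and at 72.8 and 68.2 CPM in KD. The groups did not overlap in any line, and the log2 fold changes were -1.56 ± 0.04 in SUM159, -2.29 ± 0.06 in BT549 and -0.28 ± 0.05 in MDA-MB-231. TNFAIP3 was at 41.9 and 42.2 CPM in SUM159 EV and at 9.36 and 10.1 CPM in SUM159 KD. In BT549 it was at 15.2 and 17.7 CPM in EV and at 3.34 and 3.22 CPM in OE. In MDA-MB-231 the EV libraries at 9.64 and 10.3 CPM overlapped with the KD libraries at 10.3 and 10.3 CPM. Its log2 fold changes were -2.11 ± 0.09 in SUM159, -2.33 ± 0.13 in BT549 and 0.05 ± 0.10 in MDA-MB-231, where the SE exceeds the change.

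NFKB2, whose product p100 is cut to the p52 subunit of the non-canonical branch, was at 92.9 and 90.1 CPM in SUM159 EV and at 22.1 and 22.6 CPM in SUM159 KD. In BT549 it was at 91.3 and 88.0 CPM in EV and at 27.3 and 24.8 CPM in OE. In MDA-MB-231 it was at 61.7 and 60.5 CPM in EV and at 69.9 and 69.2 CPM in KD. The groups were apart in all 3 lines, down in SUM159 KD (-2.03 ± 0.06) and BT549 OE (-1.78 ± 0.06) and up by a small step in MDA-MB-231 KD (0.19 ± 0.05).

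BIRC3, which encodes an inhibitor of cell death that also sits on TNF receptors, had the largest fold change of the 10 in BT549. It was at 20.2 and 21.3 CPM (441 and 459 counts) in BT549 EV and at 0.741 and 0.852 CPM (16 and 18 counts) in BT549 OE, a log2 fold change of -4.69 ± 0.16. In SUM159 it was at 135 and 131 CPM in EV and at 32.8 and 37.4 CPM in KD, with -1.92 ± 0.06. In MDA-MB-231 the EV libraries at 30.9 and 31.8 CPM and the KD libraries at 31.4 and 32.0 CPM overlapped, with 0.02 ± 0.07. BIRC3 was therefore low in both the KD cells of SUM159 and the OE cells of BT549 while MDA-MB-231 held it level within the spread between libraries.

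ICAM1, the adhesion molecule bound by leukocyte integrins, was higher in BT549 OE and lower in the KD cells of both other lines. It was at 17.4 and 18.4 CPM in BT549 EV and at 37.1 and 38.0 CPM in BT549 OE, a log2 fold change of 1.07 ± 0.08. In SUM159 it was at 68.9 and 68.6 CPM in EV and at 5.90 and 4.59 CPM in KD (-3.72 ± 0.09). In MDA-MB-231 it was at 27.2 and 23.6 CPM in EV and at 13.1 and 13.9 CPM in KD (-0.91 ± 0.09). The groups did not overlap in any line, and ICAM1 was the member with the lowest log2 fold change in MDA-MB-231 KD.

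Of the secreted factors, CXCL8, which encodes interleukin-8, was at 22.6 and 21.6 CPM in SUM159 EV and at 1.31 and 1.48 CPM in SUM159 KD (-3.98 ± 0.18). In MDA-MB-231 it was at 10.9 and 10.9 CPM in EV and at 8.82 and 7.29 CPM in KD (-0.44 ± 0.15). In BT549 the EV libraries at 1.01 and 1.53 CPM and the OE libraries at 0.973 and 1.94 CPM overlapped (0.20 ± 0.31). CXCL8 was thus lower in the KD cells of both lines and was hardly read in BT549, where it had between 21 and 41 counts.

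CXCL1 was abundant in BT549 alone, with 196 and 196 CPM in EV and 177 and 175 CPM in OE (-0.16 ± 0.05 on the log2 scale). In MDA-MB-231 it had 77 and 87 counts in EV and 86 and 77 in KD, which overlap (0.03 ± 0.16). In SUM159 it had 8 and 18 counts in EV and 0 and 0 in KD, so it was at least 4.68-fold lower when 3 counts are allowed in each KD library. Reads that fit CXCL1, CXCL2 and CXCL3 alike may be divided between them by the counting, so the level of each carries that uncertainty.

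IL6, the pro-inflammatory cytokine, was scarce in every library. It had 76 and 80 counts in MDA-MB-231 EV and 77 and 64 in KD, and 16 and 30 counts in BT549 EV and 17 and 18 in OE, and both pairs of groups overlapped (-0.11 ± 0.29 and -0.37 ± 0.40 on the log2 scale). In SUM159 it had 19 and 16 counts in EV and 1 and 2 in KD, a ratio of KD to EV of 0.0776 with a 95% interval from 0.0156 to 0.251 (exact, counting error only). IL32, a cytokine gene induced by NF-κB in epithelial cells, was at 914 and 912 CPM in SUM159 EV and at 470.2 and 455 CPM in SUM159 KD, a log2 fold change of -0.98 ± 0.04. It was at 3.57 and 4.17 CPM in BT549 EV and at 6.58 and 5.73 CPM in BT549 OE (0.67 ± 0.15), and its MDA-MB-231 groups overlapped (12.2 and 15.1 CPM in EV, 14.7 and 15.4 CPM in KD; 0.14 ± 0.09). IL32 kept the smallest fold change of the 10 in SUM159 although its loss in CPM there was the largest after SOD2.

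**Figure D2:**
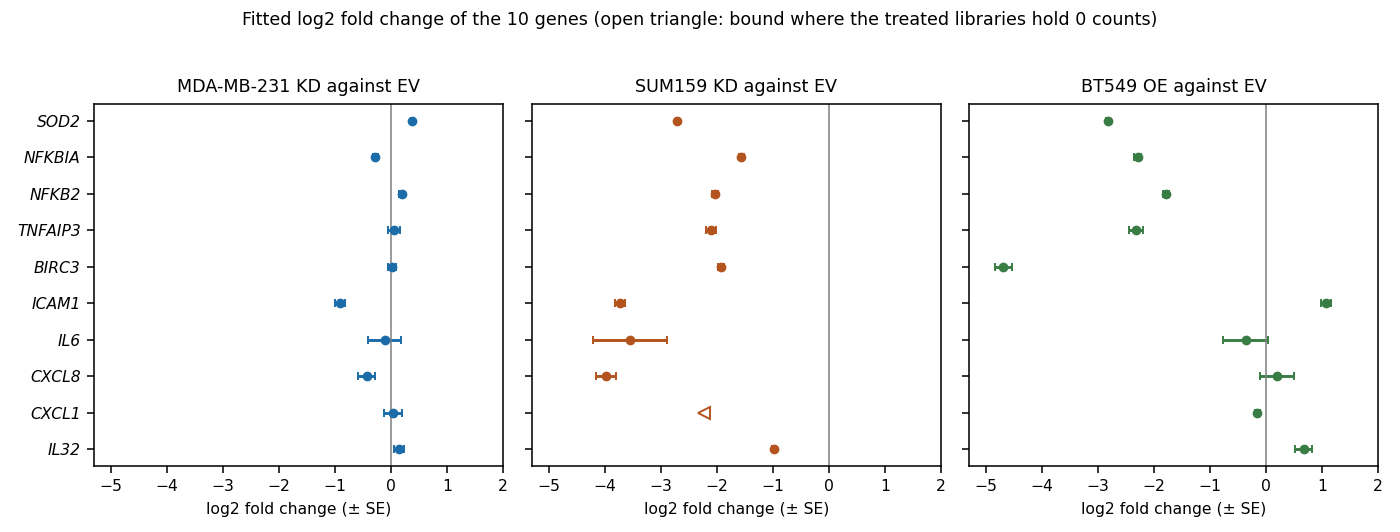
Fitted log2 fold change against EV (horizontal axis) with its standard error for each of the 10 genes (vertical axis) in MDA-MB-231 KD, SUM159 KD and BT549 OE. The points lie between -0.91 (ICAM1) and 0.38 (SOD2) in MDA-MB-231, all below 0 in SUM159, and on both sides in BT549, with BIRC3 at -4.69 and ICAM1 at 1.07. For CXCL1 in SUM159 KD the open triangle is the bound against 3 counts.

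By comparison, the members' median difference on the log2 scale was 0.02 in MDA-MB-231 KD, -2.41 in SUM159 KD and -1.08 in BT549 OE, beside medians over all genes tested of 0, 0 and 0.02. With CXCL1 in SUM159 KD set at its bound of -2.23, the SUM159 median was -2.17. In SUM159 KD 10 of 10 members were called lower at an adjusted p under 0.05, where 31.4% of all genes tested were called lower and 60.1% in either direction. In 9 of them the log2 fold change was at most -1, as in 8.39% of all genes. In BT549 OE 6 were called lower (35% of all genes) and 2 higher (35.6% of all genes), IL6 and CXCL8 were not called, and 70.6% of all genes were called in either direction. In 5 the log2 fold change was at most -1 (15.2% of all genes) and in ICAM1 at least 1 (16.1% of all genes). In MDA-MB-231 KD 3 were called lower (16.5% of all genes), namely NFKBIA, ICAM1 and CXCL8, 2 were called higher (21.2% of all genes), namely SOD2 and NFKB2, and 5 were not called, where 37.7% of all genes were called in either direction. EV and treated libraries did not overlap for 5, 10 and 8 members in MDA-MB-231, SUM159 and BT549, as for 66%, 76.7% and 82.9% of all genes tested. Since these contrasts were in view when the list was made, nothing is read from these counts. The MDA-MB-231 median depends on the scaling: with library size alone it was -0.069. The BT549 median was -1.76 when a mean of at least 50 counts was required, which leaves IL6 out.

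Genes of the NF-κB pathway and around it were tested in the same fit, although their lists too were drawn up with earlier results known. Another 9 lists with 145 such genes, grouped by role, had 133 genes with rows and 127 that could be tested. All are called pathway genes below. The 145 include 16 superoxide and peroxide enzymes beside SOD2 and 10 receptors and signal carriers of the encoded ligands. Counts over all lists pool these with the NF-κB genes. Genes absent from the table, TNF, LTA and SELE among them, cannot be judged, since no transcript with 0 in all BT549 libraries is listed there. Transcripts read only in MDA-MB-231 or SUM159 are missing for the same reason, also from the sums of listed genes. In SUM159 KD 69 of the 127 fell (31.4% of all genes tested fell) and 31 rose (28.6%), with a median log2 fold change of -0.38. In BT549 OE 74 fell (35%) and 34 rose (35.6%), with a median of -0.52. In MDA-MB-231 KD 26 fell (16.5%) and 43 rose (21.2%), with a median of 0.08, and leaving out MDA-MB-231 EV replicate 1 left 16 that fell. Changes of at least 1 on the log2 scale were few in MDA-MB-231 KD, where 4 fell and 3 rose (1.61% and 1.6% of all genes). There were 37 and 2 in SUM159 KD (8.39% and 7.28%) and 32 and 13 in BT549 OE (15.2% and 16.1%). The same shares of all genes stand beside the counts of single lists below.

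**Figure D3:**
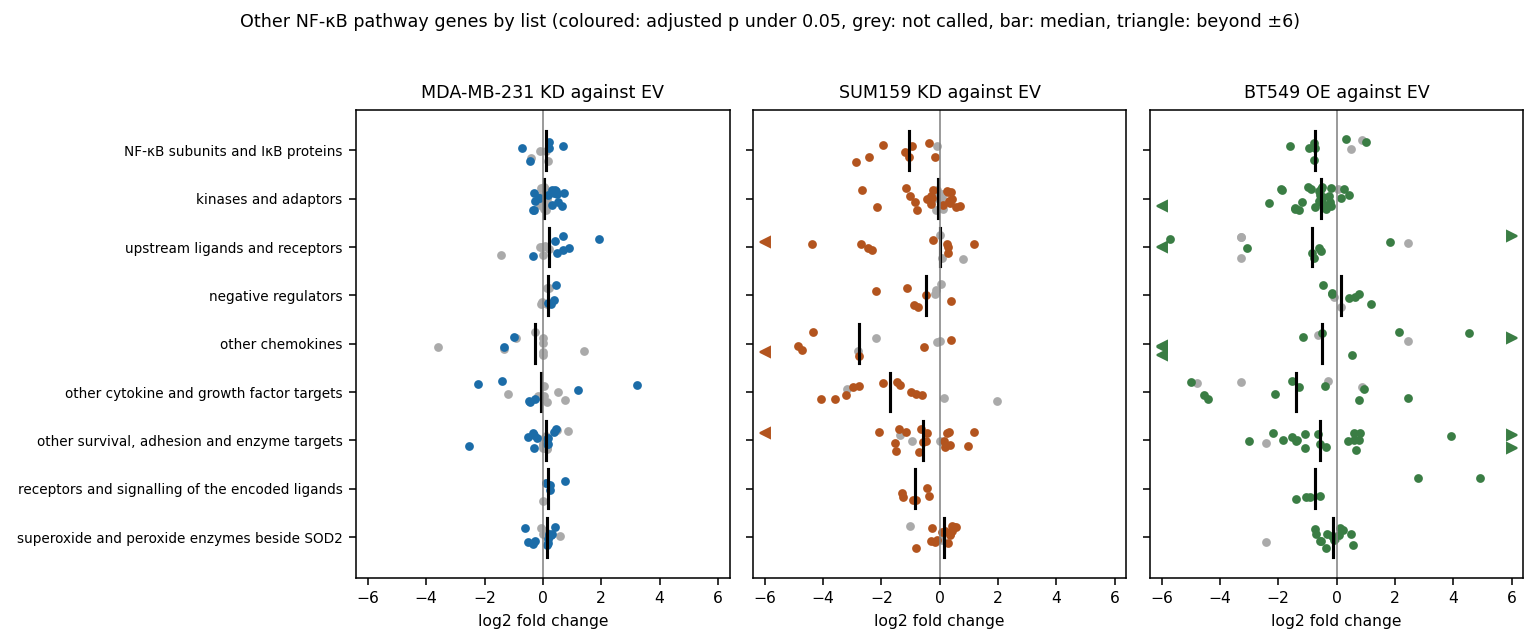
Log2 fold change against EV (horizontal axis) of the 127 tested pathway genes in their 9 lists (vertical axis), for each comparison, coloured where the adjusted p was under 0.05, with a bar at each list's median. Points crowd near 0 in MDA-MB-231 KD, and in SUM159 KD 11 of 14 cytokine targets and 8 of 9 subunits and IκB proteins lie below 0 with colour. Of all genes tested, 31.4% were called lower in SUM159 KD. Points at the edges are beyond 6 and include genes with counts at or near 0 in a group, whose fitted size is not exact.

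Among the NF-κB subunits and IκB proteins, 8 of 9 fell in SUM159 KD and none rose, 5 fell and 2 rose in BT549 OE, and 2 fell and 3 rose in MDA-MB-231 KD. RELB, the partner of p52, was at 94.9 and 86.7 CPM in SUM159 EV and 16.2 and 17.2 in KD, a log2 fold change of -2.44 ± 0.06 (adjusted p = 2.53e-19, edgeR). In BT549 it fell from 87.5 and 89.2 CPM to 30.4 and 27.7 CPM (-1.60 ± 0.06, adjusted p = 7.42e-17). RELB in MDA-MB-231 KD did not pass the test (0.11 ± 0.06, adjusted p = 0.157). NFKB1, which encodes p105 and p50, fell in all 3 comparisons, with -1.93 in SUM159 KD, -0.75 in BT549 OE and -0.44 in MDA-MB-231 KD on the log2 scale. RELA, which carries the main activation domain, moved little in KD cells, with -0.18 ± 0.03 in SUM159 (adjusted p = 8.54e-05) and 0.20 ± 0.03 in MDA-MB-231 (adjusted p = 2.97e-05), and changed by -0.77 in BT549 OE (adjusted p = 9.6e-16). REL fell in SUM159 KD (-1.07 ± 0.22, adjusted p = 0.000236), and its values were -0.42 ± 0.21 in MDA-MB-231 KD and 0.50 ± 0.29 in BT549 OE, which did not pass the test there but did under some other settings.

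Of the kinases and adaptors of the pathway, which carry the signal from receptors to IKK, 24 of 28 fell in BT549 OE and 3 rose. Of all genes tested, 35% fell and 35.6% rose there. In 8 of the 28 the log2 change was at most -1 (15.2% of all genes), and the median of the list was -0.55. In SUM159 KD 11 fell and 9 rose, and in MDA-MB-231 KD 6 fell and 10 rose. TRAF1, an adaptor that is itself an NF-κB target, went from 1120 and 1102 counts in BT549 EV to 10 and 10 in OE (-6.76 ± 0.16, adjusted p = 1.22e-20) and from 152 and 146 to 32 and 41 counts in SUM159 KD (-2.14 ± 0.17, adjusted p = 1.44e-10). IRAK2, a kinase-like adaptor of interleukin-1 receptors, fell in SUM159 KD, with -2.66 on the log2 scale. MAP3K14, which encodes the NIK kinase of the non-canonical branch, rose in MDA-MB-231 KD by 0.71 ± 0.07. Of 9 negative regulators, 5 fell and 1 rose in SUM159 KD, 3 fell and 4 rose in BT549 OE, and 4 rose and none fell in MDA-MB-231 KD. ZC3H12A, which encodes an RNase that degrades cytokine mRNAs, fell in SUM159 KD (-2.19), and CYLD, a deubiquitinase, rose by 0.76 in BT549 OE and by 0.39 in MDA-MB-231 KD and fell in SUM159 KD (-0.47).

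Among upstream ligands and receptors, IL1A, which encodes interleukin-1α, had 551 and 571 counts in SUM159 EV and 4 and 5 in KD (-7.03 ± 0.21, adjusted p = 1.01e-17), while in MDA-MB-231 it had 272 and 258 counts in EV and 272 and 277 in KD (0.09 ± 0.12, adjusted p = 0.616). TNFRSF12A, the receptor of TWEAK, rose from 214 and 223 to 498 and 486 CPM in SUM159 KD (1.17 ± 0.04). In BT549 OE it rose from 107 and 97.0 to 373 and 356 CPM (1.84 ± 0.04). TLR3 and TNFRSF1B fell in BT549 OE, with log2 changes of -5.70 and -3.09. Of 13 tested genes of this list, 6 fell and 4 rose in SUM159 KD, 7 fell and 2 rose in BT549 OE, and 1 fell and 6 rose in MDA-MB-231 KD.

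Other chemokines fell with CXCL8 in SUM159 KD. CXCL2 had 296 and 320 counts in SUM159 EV and 8 and 17 in KD (-4.73 ± 0.27, adjusted p = 2.72e-13), and CXCL3 had 195 and 203 in EV and 9 and 12 in KD (-4.34 ± 0.32, adjusted p = 3.39e-11). Both were low in the other lines, with at most 42 counts in a library, and in MDA-MB-231 KD they fell from 24 and 25 to 15 and 9 counts and from 29 and 23 to 8 and 12 counts. The MDA-MB-231 calls were lost with 1 of several libraries left out, for CXCL2 with an adjusted p of up to 0.267 without MDA-MB-231 KD replicate 2. Of 11 tested chemokines, 6 fell and 1 rose in SUM159 KD and 5 fell and 4 rose in BT549 OE. In BT549 the exchange was of a different kind: CCL5 went from 7611 and 7245 counts to 13 and 6, CXCL10 from 303 and 267 to 1 and 0 (a 95% interval of the fold of EV over OE from 100.2 to 22181, exact, counting error only), and CCL2, a monocyte attractant, from 0 and 0 to 617 and 652, at least 215-fold higher against 3 counts per library.

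Cytokine and growth factor targets fell in SUM159 KD for 11 of 14 genes with none rising, LIF (-3.59 ± 0.21) and PTX3 (-2.77 ± 0.12) among them. In BT549 OE 7 fell and 3 rose: CFB, a complement factor, went from 109 and 109 to 4.31 and 4.92 CPM (-4.56 ± 0.12), and PTX3 rose there (2.43 ± 0.20). In MDA-MB-231 KD the acute-phase gene SAA1 rose from 37 and 37 to 360 and 324 counts (3.24 ± 0.21, adjusted p = 4e-11) and CSF1, the macrophage growth factor, from 50.1 and 49.5 to 112 and 118 CPM (1.21 ± 0.04). BMP2 and CSF3 fell there, with -2.24 and -1.39. Survival, adhesion and enzyme targets were split, with 11 that fell and 7 that rose in SUM159 KD, 11 and 9 in BT549 OE, and 6 and 6 in MDA-MB-231 KD. IRF1, a transcription factor induced by interferon and by NF-κB, fell from 31.0 and 34.4 to 7.93 and 7.42 CPM in SUM159 KD and from 168 and 163 to 20.5 and 20.4 CPM in BT549 OE.

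Among receptors and signal carriers of the encoded ligands, IL6ST, the shared receptor chain gp130, fell in SUM159 KD (-0.80 ± 0.04) and in BT549 OE (-1.04 ± 0.04) and rose in MDA-MB-231 KD (0.26 ± 0.04), and STAT3 fell in the former pair, with -1.25 and -1.38. All 6 tested genes of this list fell in SUM159 KD. In BT549 OE IL6R, the specific receptor chain, rose from 31 and 11 to 654 and 608 counts (4.93 ± 0.16). The other enzymes that remove superoxide and peroxide did not move in 1 direction: of 16, 5 fell and 9 rose in SUM159 KD, 8 fell and 5 rose in BT549 OE, 4 fell and 8 rose in MDA-MB-231 KD, and none that passed the test had a log2 change of 1 or more in size in these 3 comparisons. SOD1, the copper-zinc enzyme of the cytosol, changed by -0.36 ± 0.03 in BT549 OE and 0.20 ± 0.03 in MDA-MB-231 KD. In SUM159 KD it changed by -0.10 ± 0.03 (adjusted p = 0.0155), a call that RLE scaling did not keep (adjusted p = 0.282).

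Whether the change from EV to KD was alike in the 2 KD lines was tested gene by gene as a difference of effects in the same model. The p-values of this fit, here and above, rest on the spread between libraries. That spread may be technical, so they may not cover variation between separate cultures. TRMT112 itself changed by -1.23 in MDA-MB-231 KD and -0.76 in SUM159 KD, and the part of this in the differences was not tested. For 65 of the 127 pathway genes the effect was higher in MDA-MB-231 than in SUM159 (27.7% of all genes tested) and for 24 it was lower (23.2% of all genes), and for 37 and 4 of them the difference was at least 1 on the log2 scale (7.77% and 7.21% of all genes). Among subunits and IκB proteins 7 of 9 were higher in MDA-MB-231 and none lower. The difference was 2.55 ± 0.09 for RELB (adjusted p = 9.96e-17), 7.12 ± 0.26 for IL1A (adjusted p = 1.16e-15) and 3.74 ± 0.52 for CXCL2 (adjusted p = 1.68e-06) on the log2 scale. For TNFRSF12A it was -1.21 ± 0.05 (adjusted p = 5.39e-15), the reverse order.

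**Figure D4:**
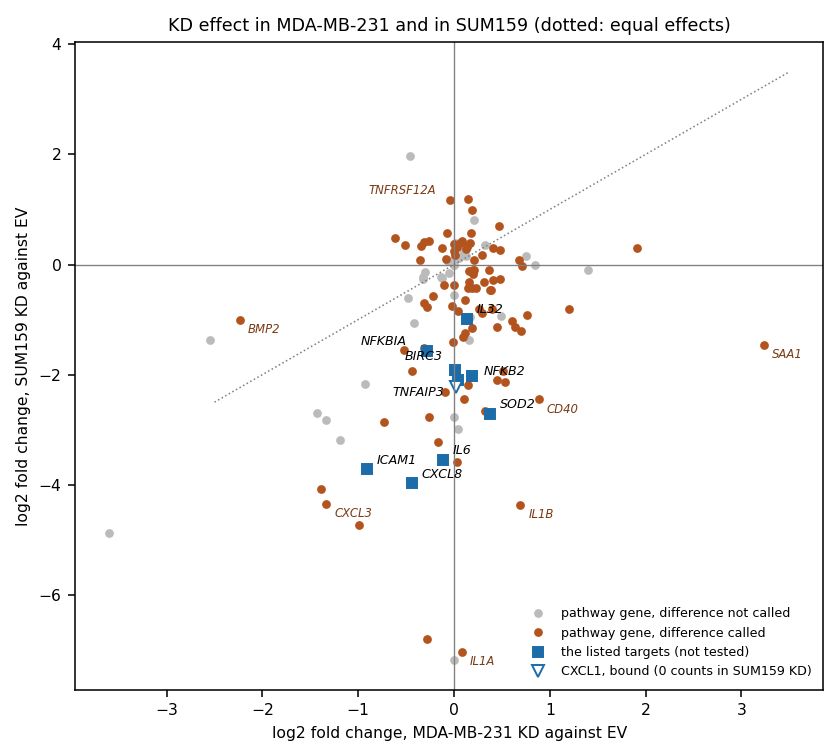
Log2 fold change of KD against EV in MDA-MB-231 (horizontal axis) and SUM159 (vertical axis) for the 127 tested pathway genes (circles, orange where the difference of effects had an adjusted p under 0.05) and the 10 listed targets (squares, CXCL1 as an open triangle at its bound). The targets lie between -0.91 and 0.38 on the horizontal axis and at or below -0.98 on the vertical axis, far below the dotted line of equal effects for SOD2, CXCL8 and ICAM1.

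The SUM159 and BT549 comparisons share no library, and TRMT112 moved in opposite directions in them. Of the 127 pathway genes 41 fell in both (13.4% of all genes tested), 10 rose in both (12.7%), and 35 were called in opposite directions, 15 of them lower in SUM159 KD and 20 lower in BT549 OE (21.2% of all genes were opposite). Those that fell in both included RELA, NFKB1, RELB and NFKBIE of the subunits and IκB proteins, TRAF1 and IRAK2 of the adaptors, and IRF1, CXCL2, IL6ST and STAT3. Of the 10 listed targets, 5 were lower by at least 1 on the log2 scale in both, as were 2.15% of all genes tested, and nothing is read from this count because these values were in view when the list was made. They were SOD2, NFKBIA, NFKB2, TNFAIP3 and BIRC3.

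Across all 12 libraries the targets did not rise and fall as a block. Pearson correlations of log2 CPM with SOD2 ran from -0.23 for IL6 to 0.58 for TNFAIP3, whereas NFKBIA followed TNFAIP3 (0.95) and BIRC3 (0.94). CXCL1 and IL32 ran against each other (-0.87), since the former was high in BT549 and the latter in SUM159. Among 12590 genes averaging 50 counts or more, the 5 most like SOD2 over the 12 libraries were IL6ST (0.99), GAR1 (0.99), C1QTNF1 (0.98), ENOPH1 (0.98) and KAT2A (0.98). The 5 most like the mean profile of the 10 targets were ATL2 (0.99), EXO1 (0.97), COL17A1 (0.96), CCNB1 (0.96) and WAPL (0.96). These correlations rest on 3 cell lines with 2 groups each and share libraries and depth, and they are given as a description.

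The transcripts behind SOD2 were also unevenly used. Of 15 SOD2 transcripts in the table, SOD2-203 (990 bases, protein coding) and SOD2-215 (4302 bases, annotated as subject to nonsense-mediated decay) held most of the counts. SOD2-203 took 28.1% and 29.9% of the SOD2 counts in SUM159 EV and 37.8% and 36.3% in SUM159 KD. In BT549 it took 45.9% and 44.3% in EV and 29.5% and 30.4% in OE, and in MDA-MB-231 22.6% and 23.6% in EV and 23.8% and 22.7% in KD. The share of SOD2-203 was thus higher where SOD2 was low in SUM159 and lower where SOD2 was low in BT549, the MDA-MB-231 libraries overlapped, and SOD2-215 moved the other way, from 68.3% and 66.5% to 52.9% and 56.2% in SUM159 and from 49.0% and 50.7% to 63.9% and 64.3% in BT549. In CPM both transcripts were lower in SUM159 KD and in BT549 OE: SOD2-203 went from 787 and 846 to 162 and 158 in SUM159 and from 1881 and 1865 to 169 and 182 in BT549. An exact permutation test of 2 libraries against 2 cannot give a two-sided p below 0.333, and the shares are given as a description, with no test. They depend on how the authors' counting divided reads between overlapping transcripts. Shares of this and the other genes also leave out any transcript without counts in BT549.

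**Figure D5:**
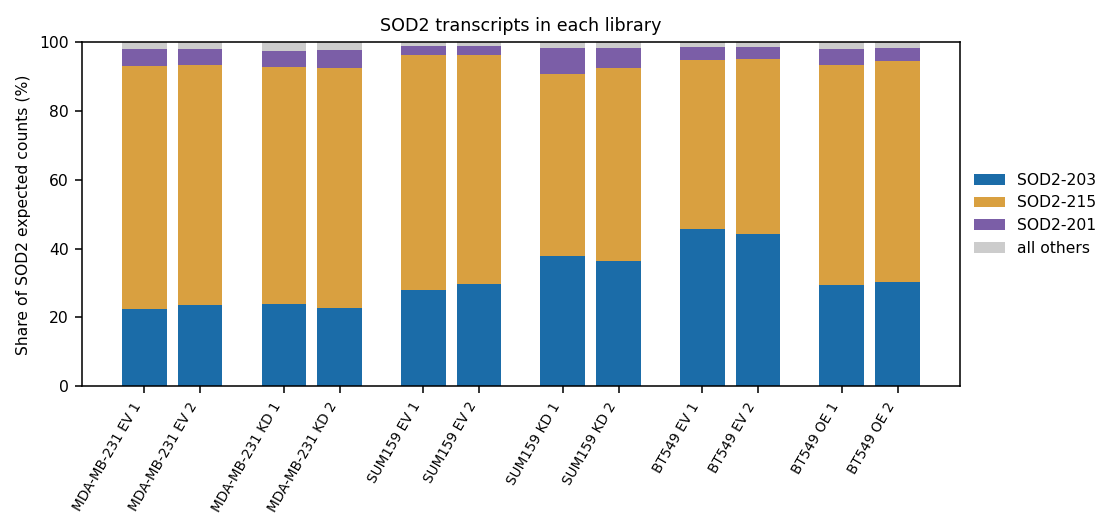
Share of the SOD2 expected counts (vertical axis, percent) held by SOD2-203, SOD2-215, SOD2-201 and all other transcripts in each of the 12 libraries (horizontal axis). SOD2-203 makes up 45.9% and 44.3% in the BT549 EV libraries and 29.5% and 30.4% in BT549 OE, and goes the other way in SUM159.

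ICAM1, CXCL8, CXCL1 and NFKBIA were read mainly from 1 transcript each. ICAM1-201, CXCL8-201 and CXCL1-201 each held at least 92.7% of the counts of their gene in every library with counts, and NFKBIA-201 between 86.7% and 98.8%. The other 5 targets were spread over several transcripts, with 4 of NFKB2, 6 of TNFAIP3, 5 of BIRC3, 5 of IL6 and 8 of IL32 holding at least 5% on average in some group. IL32 had 34 transcripts in the table, and the share of IL32-211 (818 bases) was 41.2% and 40.4% in SUM159 EV and 29.6% and 30.4% in SUM159 KD, without overlap. Shares of TNFAIP3 and BIRC3 transcripts differed widely between some replicates. TNFAIP3-203 held 55.0% in MDA-MB-231 KD replicate 1 and 10.3% in replicate 2, and BIRC3-206 held 0.0% and 60.3% in the BT549 OE libraries, at 16 and 18 counts.

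Set against the promoters shown above, the 4 genes with GGAANTTCC were not a uniform group. In SUM159 KD they spanned log2 fold changes from -1.56 for NFKBIA to -3.98 for CXCL8, with CXCL1 given only as a bound. In BT549 OE NFKBIA was lower (-2.29), ICAM1 higher (1.07), CXCL8 within its error (0.20) and CXCL1 slightly lower (-0.16). The 6 genes without GGAANTTCC in their windows, SOD2 among them, all held the looser form. They had values of -0.98 or lower in SUM159 KD and ranged from -4.69 to 0.67 in BT549 OE. CXCL2 and CXCL3, which carry GGAANTTCC 77 and 78 bases before their starts, fell in SUM159 KD like CXCL8.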

How the data were processed

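Polysome RNA of 12 libraries was analysed. Per the methods and the labels' processing notes, the authors used Trimmomatic, HISAT2 on GRCh38, SAMtools and Partek. For library preparation the methods name a stranded total RNA kit and the labels a poly(A) kit. What the authors deposited is a table of expected counts for Ensembl transcripts, without normalization. The counter, its annotation and its strand setting are not given in the sources used here. In the 8 columns of MDA-MB-231 and SUM159, 5.08% of transcripts carry a missing mark, taken as 0, and their unit was recorded as other for that reason. Their numbers are expected counts, as in the BT549 columns. SOD2 overlaps WTAP on the opposite strand in annotation, so reads of the pair could mix if strand was not used.

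Transcripts were matched to GENCODE 44 without version (79.6% of rows, at least 99.2% of each library's counts), summed per symbol and rounded (Python 3.11.15, pandas 2.3.3, numpy 2.4.6; figures with matplotlib 3.10.9). Genes kept by filterByExpr were tested in R 4.3.3 with edgeR 4.0.16 (TMM, quasi-likelihood, 6 group means, 6 residual degrees of freedom, Benjamini-Hochberg over 16538 genes, called under 0.05), checked on simulated data. The study's methods name DESeq2, run here as an alternative (1.42.0). Other alternatives were RLE or library-size scaling, no filter, a minimum mean of 50 counts, each line alone, a replicate block, marked transcripts left out, a log2 threshold of 1, and each library left out. A count of 0 allows up to 3 counts; intervals (95%) cover counting error only.

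The members and gene lists were chosen with earlier results of these data known. Named pathway genes were RELA, NFKB1, REL, RELB, CXCL2, CXCL3 and SOD1 and, per list, contrast and direction, up to 2 called genes with the largest change at a mean of at least 50 counts; some of these are not printed.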

Additional observations from a re-analysis of the deposited data

Results flagged for a closer look

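The pathway lists were drawn up with earlier results of these data known. By a test of the difference between MDA-MB-231 and SUM159, the KD effect was higher in MDA-MB-231 for 65 pathway genes and lower for 24. Over all genes tested, 27.7% were higher and 23.2% lower. In 32 of them the effect was called in opposite directions in the lines, as for 12.2% of all genes tested. The differences of at least 1.5 on the log2 scale among these were 5.06 for IL1B, 4.69 for SAA1, 3.34 for CD40, 2.99 for IRAK2, 2.67 for TRAF1, 2.55 for IRF1, 2.02 for CSF1, 1.91 for NFKBIE, 1.78 for IKBKE, 1.67 for ITGB2 and 1.58 for TAX1BP1, all higher in MDA-MB-231. IL1B rests on 103 and 115 counts in MDA-MB-231 EV against 165 and 179 in KD, and on 59 and 60 against 2 and 4 in SUM159, and its MDA-MB-231 call was lost when any 1 library of that line was left out. SOD2 and NFKB2 moved in opposite ways with no overlap between libraries, SOD2 by 0.38 in MDA-MB-231 and -2.71 in SUM159, and NFKB2 by 0.19 and -2.03. For this pair the difference was not tested, since the targets were chosen with these values in view. With 2 libraries per group, no library can be tested for standing apart from its group.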

How the results depend on the processing

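With a change of at least 1 on the log2 scale required as well, the counts of pathway genes were 3 higher and 4 lower in MDA-MB-231 KD, 2 and 37 in SUM159 KD, 13 and 32 in BT549 OE, and 37 and 4 for the difference of the KD effects. With 1 library left out, MDA-MB-231 KD had 37 to 39 higher and 16 to 22 lower, SUM159 KD 27 to 31 and 63 to 66, BT549 OE 29 to 34 and 67 to 71, and the difference 60 to 65 and 20 to 24; the lone library is then assumed to vary like the other groups. The members' median in MDA-MB-231 was -0.069 with library size alone and lay between -0.024 and 0.069 with 1 library left out, with the sign reversed without MDA-MB-231 EV replicate 1 (-0.024) and without MDA-MB-231 KD replicate 1 (-0.0020). In SUM159 it was -2.08 with a mean of at least 50 counts and -2.10 with the line alone (the cause was not tested), and -2.44 to -2.38 with 1 library left out. In BT549 it was -1.76 with a mean of at least 50 counts, where IL6 is no longer tested as in SUM159, and -1.26 to -0.99 with 1 library left out. TNFAIP3 and BIRC3 in MDA-MB-231 KD were -0.04 and -0.07 with library size alone.

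The replicate numbers did not pair the libraries: deviations of same-numbered libraries correlated at 0.02, -0.02 and 0.00. With the replicate block the counts were 42 higher and 26 lower in MDA-MB-231 KD, 31 and 69 in SUM159 KD, 34 and 75 in BT549 OE, and 65 and 24 for the difference. For named pathway genes 29 values lost the call under an alternative, 5 gained it and 1220 kept their side of the threshold, with no reversal. Genes with few counts (IL6, CXCL1, CXCL2, CXCL3) are limited by depth.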
